A study of Mus musculus with 37 samples.

Results

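Ribonucleotide reductase, the thymidylate enzymes, deoxycytidine kinase and the deoxynucleotide hydrolase Samhd1 were followed here across cultured cardiac cells and cells of the injured heart. The set holds 9 genes, taken by name as enzymes that make, salvage or destroy deoxynucleotides: Rrm1, Rrm2, Rrm2b, Tyms, Tk1, Dctd, Dut, Dck and Samhd1. All 9 were present among the 30892 genes of the fibroblast table, the 20158 genes of the myocyte table and the 31053 genes of each single-cell table, and all 9 passed the low-count filter in both bulk tables (17879 and 13461 genes tested).

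A total of 37 samples were measured. ENPP1 is an ectonucleotidase that splits extracellular ATP into AMP and pyrophosphate, and the study compared media conditioned by neonatal rat ventricular myocytes (NRVMs) that had been given vehicle, ENPP1, ATP, ENPP1+ATP or AMP. Such myocyte-conditioned medium (MCndM) was put on cardiac fibroblasts (CFs) for 24 h or 48 h, with 2 libraries per medium and time and 20 in all, and on NRVMs for 24 h, with 3 libraries per medium and 15 in all. The remaining 2 samples were single-cell libraries of nonmyocytes from injured hearts at day 7 after myocardial infarction, 1 from ENPP1CKO and 1 from control animals, the latter labelled wild type and both of strain C57BL/6.

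The CFs were wild type C57BL/6 mouse cells immortalised with an SV40 antigen, and the NRVMs were wild type Sprague-Dawley cells. The organism label of the NRVM samples reads Mus musculus, while their cell type and strain labels name rat cells and the processing notes name a rat build, and they were treated as rat. Both were plated sparsely, kept without serum for a day and then given the media, so every group, the vehicle group included, had received NRVM-conditioned medium. ENPP1CKO mice carried Col1a2CreERT and 2 floxed ENPP1 alleles and received tamoxifen before and after the injury, so only cells that use the Col1a2 driver could lose the gene. The paper describes its n as biological replicates and gives 2 for the CF RNA-Seq. How many hearts entered each single-cell library, and what separated the libraries of 1 group, is not given in the sources used here. The p-values therefore measure the spread between these libraries, which may in part be technical. Enpp1 itself stood at 127 CPM (the count scaled to the total of its library) in fibroblast-like cells of the control library and 28.6 CPM in those of the ENPP1CKO library.

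DNA synthesis needs a balanced pool of the deoxynucleoside triphosphates. Ribonucleotide reductase makes their precursors from ribonucleotides. Its large subunit RRM1 pairs in cycling cells with RRM2, whose gene is expressed mainly around S phase, and outside S phase or after DNA damage with RRM2B, whose gene is a p53 target. Thymidylate comes from dUMP through thymidylate synthase (Tyms), with dUMP supplied by dCMP deaminase (Dctd) and by dUTPase (Dut), or from thymidine through thymidine kinase 1 (Tk1). Deoxycytidine kinase (Dck) salvages deoxycytidine and purine deoxynucleosides, and SAMHD1 hydrolyses deoxynucleoside triphosphates. SAMHD1 is best known from myeloid cells, where it is abundant. Dividing cells are known for high levels of the S phase enzymes and adult cardiac myocytes for low ones.

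In the mouse genome (GRCm38, the build named mm10 in the submitters' processing notes; GENCODE annotation) the reductase genes lie at chr7:102441695-102469771 on the plus strand (Rrm1), chr12:24708241-24714146 on the plus strand (Rrm2) and chr15:37923952-37961318 on the minus strand (Rrm2b). Tyms lies at chr5:30058202-30073617, Tk1 at chr11:117815526-117826092 and Samhd1 at chr2:157097533-157135265, all on the minus strand. On the plus strand are Dctd at chr8:48099092-48153233, Dut at chr2:125247190-125258608 and Dck at chr5:88764996-88783281. The 9 genes thus occupy 7 chromosomes, with Tyms and Dck sharing chromosome 5 and Dut and Samhd1 sharing chromosome 2. The annotation also holds a processed pseudogene of Tyms, whose reads the counting could have split from the parent gene.

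The promoters printed are those of 4 members that rose in CFs with ENPP1+ATP at 24 h, as sequences next to the start of genes moving in the same direction. Rrm2b and Tk1 rose there too. For Rrm2b there is no promoter entry, and the window of Tk1, which holds no CCAAT, is not printed. Each line gives the 150 bases before the annotated start of the gene, 5′ to 3′ on the gene's strand, from RefSeq (GRCm38.p6), and the capitals mark CCAAT boxes. The windows are chr7:102441545-102441694 on the plus strand for Rrm1, chr12:24708091-24708240 on the plus strand for Rrm2, chr5:30073626-30073775 on the minus strand for Tyms, where RefSeq places the start a few bases outside the annotated gene, and chr5:88764846-88764995 on the plus strand for Dck.

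Rrm1: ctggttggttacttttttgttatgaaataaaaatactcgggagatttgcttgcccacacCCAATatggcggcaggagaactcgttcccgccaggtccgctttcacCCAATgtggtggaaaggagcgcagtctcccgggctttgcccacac
Rrm2: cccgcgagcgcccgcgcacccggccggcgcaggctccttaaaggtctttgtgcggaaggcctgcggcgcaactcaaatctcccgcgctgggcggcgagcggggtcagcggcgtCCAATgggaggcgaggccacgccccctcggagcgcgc
Tyms: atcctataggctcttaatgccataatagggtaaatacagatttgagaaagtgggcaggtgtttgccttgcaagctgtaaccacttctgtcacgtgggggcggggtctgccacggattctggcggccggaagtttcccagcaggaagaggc
Dck: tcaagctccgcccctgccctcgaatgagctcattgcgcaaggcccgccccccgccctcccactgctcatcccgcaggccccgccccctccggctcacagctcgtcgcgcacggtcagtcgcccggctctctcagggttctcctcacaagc

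Promoter entries matched 8 of the 9 members, with 10 windows in all because Dctd has 3. Over 250 bases before the RefSeq start, and on both strands, CCAAT occurred in 4 of these 10 windows and in 33.85% of 32851 mouse promoters. Rrm1 carries it at bases 91 to 87 and again at bases 45 to 41 before the start and Rrm2 at bases 50 to 46, where the RefSeq start of Rrm2 lies inside the annotated gene, so that the box stands nearer to the end of the printed line than this count. CCAAT also occurs for Dctd in 2 overlapping windows. E2F-like words (TTTCCCGC, TTTGGCGC, TTTCGCGC or TTTGCCGC) were in 1.86% of all promoters and in 0 of the 10 windows, and the interferon response-like word, GAAA repeated after any 2 bases, was in 2.977% of all promoters and in 0 of the 10. Of the 4 promoters printed, those of Rrm1 and Rrm2, the catalytic pair, thus hold CCAAT, and those of Tyms and Dck, which rose beside them, do not hold these letters in this window.

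Levels of the 9 genes in CFs were well covered. Library totals were between 32184799 and 115824659 reads in CFs and between 13481389 and 16977980 in NRVMs, and the lowest member count in any CF library was 685 reads (Dctd). In NRVMs the thinnest members were Samhd1, with 51 reads in its lowest library, and Rrm2b and Dck, with 68 and 78. Of 20 CF libraries, 11 correlated best with the other library of their own group. Bulk values are CPM scaled with TMM factors, which correct for differences in library makeup, and adjusted p-values are from edgeR's quasi-likelihood test with Benjamini-Hochberg adjustment over all genes tested, with calls at 0.05. In bulk RNA, fewer cells of a kind and less RNA per cell cannot be told apart.

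The first question was what the medium of NRVMs given both ENPP1 and ATP did to the supply enzymes of CFs at 24 h. Against vehicle medium, 6 members rose (Rrm2, Dck, Rrm1, Rrm2b, Tyms and Tk1), 2 fell (Dctd and Samhd1), and Dut did not pass the test. Rrm2 led with a 3.00-fold higher level. Over all genes tested, 49.1% passed in this comparison, 23.9% higher and 25.3% lower. The median log2 change was 0.46 over the 9 members and -0.00 over all genes. No member's vehicle and ENPP1+ATP libraries overlapped, but the share of all genes without overlap was not counted. With 2 libraries per group, libraries can lie apart without a call, as for Dut (log2 change -0.03).

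Rrm2, the regulatory subunit made around S phase, stood at 84.4 and 82.0 CPM in the vehicle libraries and at 261 and 239 CPM in the ENPP1+ATP libraries. Both treated libraries were far above both controls, with a log2 change of 1.59 (SE 0.065, adjusted p = 1.8e-15, edgeR). Rrm1, the large subunit, read 333 and 331 CPM with vehicle and 517 and 493 CPM with ENPP1+ATP, a log2 change of 0.61 (SE 0.045, adjusted p = 3.9e-11, edgeR). The alternative subunit Rrm2b rose too, from 28.0 and 32.9 CPM to 41.6 and 43.7 CPM (log2 change 0.50, SE 0.096, adjusted p = 0.00013, edgeR). All 3 subunit genes were therefore higher, but by unequal amounts. Levels were also divided by the joined length of all annotated exons of a gene, 11.012 kb for Rrm1 and 2.771 kb for Rrm2. This length can exceed that of the expressed transcript, so comparisons of different genes on this scale are rough. Changes of a gene or ratio between media do not depend on it. Rrm1 and Rrm2 read 30.1 and 30.0 CPM per kb with vehicle, and 45.9 and 90.3 CPM per kb with ENPP1+ATP. The ratio of Rrm2 to Rrm2b per kb was 9.93 and 8.23 in the vehicle libraries and 20.7 and 18.03 in the ENPP1+ATP libraries.

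Among the thymidylate enzymes, Tyms, which methylates dUMP to dTMP, moved from 96.6 and 99.2 CPM to 137 and 132 CPM (log2 change 0.46, SE 0.055, adjusted p = 1.5e-07, edgeR). Tk1, the thymidine salvage kinase, moved less, from 115 and 111 CPM to 134 and 127 CPM (log2 change 0.21, adjusted p = 0.0040). Without ENPP1+ATP replicate 1 the Tk1 change was 0.18 and its adjusted p 0.051 in edgeR, which ends that call. Dctd, which turns dCMP into dUMP, went the other way, from 29.1 and 29.4 CPM to 16.8 and 18.4 CPM, a log2 change of -0.73 (SE 0.070, adjusted p = 3.4e-09, edgeR). Dut, which clears dUTP and yields dUMP, read 72.0 and 71.9 CPM with vehicle and 71.0 and 70.3 CPM with ENPP1+ATP, and its log2 change of -0.03 had a 95% interval of -0.13 to 0.08. The enzyme that uses dUMP was thus higher while 1 of the enzymes that supply it was lower and the other had an interval around 0.

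Dck, the salvage kinase for deoxycytidine, rose from 66.8 and 73.4 CPM to 111 and 109 CPM (log2 change 0.65, SE 0.052, adjusted p = 1.3e-10, edgeR). Samhd1, the enzyme that destroys deoxynucleoside triphosphates, fell from 365 and 385 CPM to 280 and 298 CPM (log2 change -0.38, SE 0.055, adjusted p = 2.7e-06, edgeR). Per kb of annotated exon, Samhd1 had the highest value of the 9 with vehicle, at 41.0 CPM per kb. With ENPP1+ATP it came after Rrm2 and Rrm1, at 31.6 CPM per kb. These ranks depend on the annotated lengths. At the low end, Dctd and Rrm2b had 8.59 and 3.33 CPM per kb with vehicle and 5.16 and 4.67 CPM per kb with ENPP1+ATP.

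**Figure D1:**
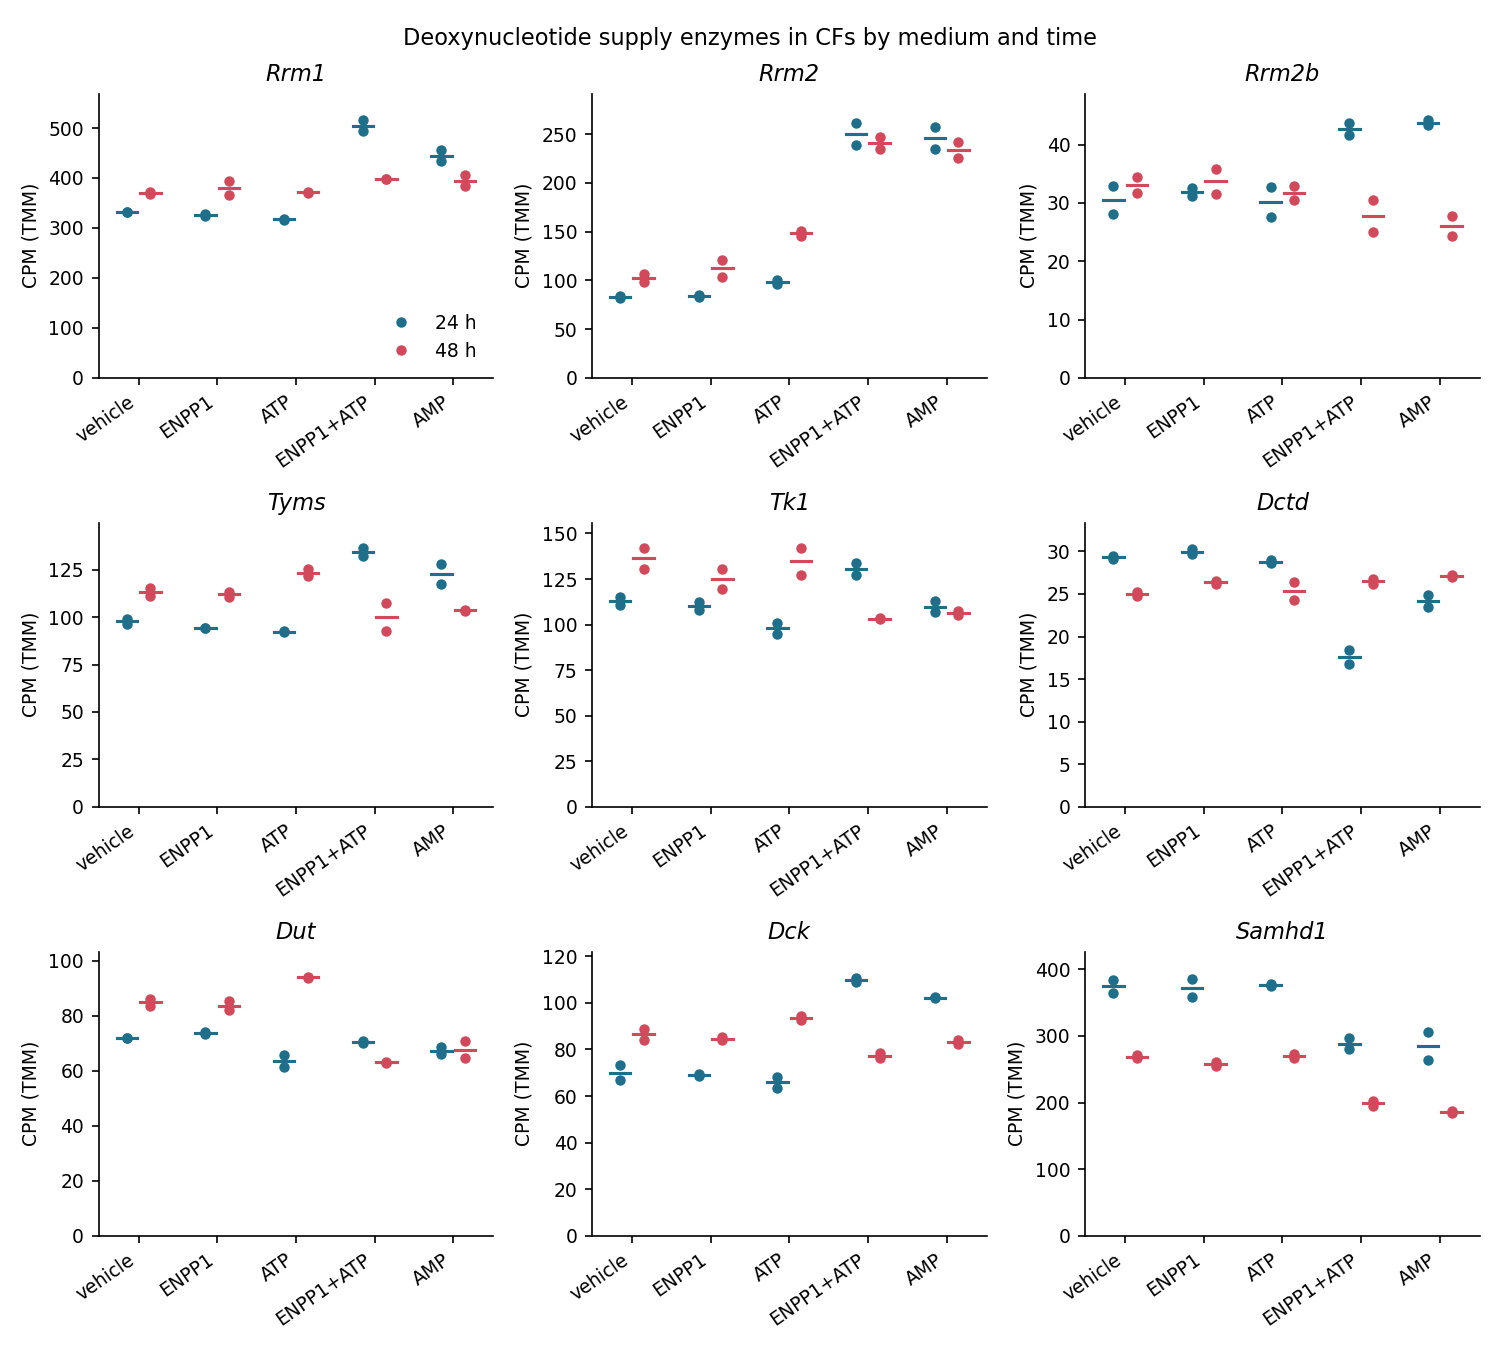
Level of each of the 9 genes in CFs (y axis, CPM with TMM factors, from 0) by medium (x axis) at 24 h (blue) and 48 h (red). Points are the 2 libraries per group and lines their mean; the 24 h points with ENPP1+ATP and with AMP stand above vehicle for Rrm1, Rrm2, Rrm2b, Tyms and Dck and below it for Dctd and Samhd1, and at 48 h only Rrm2 stays well above vehicle.

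AMP medium asked whether the product of ENPP1 acts like ENPP1 and ATP together. AMP and ENPP1+ATP were compared with the same vehicle libraries, so their values are given side by side. Against vehicle at 24 h, 5 members were higher with AMP (Rrm2, Dck, Rrm2b, Rrm1, Tyms) and 2 lower (Samhd1, Dctd), where 52.8% of all genes passed, 25.3% higher and 27.5% lower. Rrm2 reached 258 and 235 CPM, close to its ENPP1+ATP values, with a log2 change of 1.56 (SE 0.065, adjusted p = 1.0e-15, edgeR). Dck was at 102 and 102 CPM (log2 change 0.55, adjusted p = 2.0e-09), Rrm1 at 455 and 433 CPM (0.42, adjusted p = 1.7e-08) and Rrm2b at 43.4 and 44.2 CPM (0.53, adjusted p = 4.6e-05). Both AMP libraries lay above both vehicle libraries for each of these genes. Tyms reached 128 and 117 CPM (log2 change 0.32, adjusted p = 2.0e-05, edgeR), and Tk1, at 113 and 107 CPM, overlapped with vehicle (-0.04, 95% interval -0.16 to 0.08). Dctd was at 24.8 and 23.4 CPM (-0.28, adjusted p = 0.0011) and Samhd1 at 263 and 305 CPM (-0.40, adjusted p = 1.1e-06).

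Set directly against ENPP1+ATP at 24 h, AMP medium differed for 3 of the 9 members, while 6.25% of all genes passed. Dctd was higher with AMP by 0.45 on the log2 scale (adjusted p = 0.00038, edgeR), that is, it was lowered less. Rrm1 and Tk1 were lower with AMP, by -0.18 (adjusted p = 0.014) and -0.25 (adjusted p = 0.011) in edgeR, and both calls end without ENPP1+ATP replicate 1 or without AMP replicate 2, with adjusted p up to 0.17 for Rrm1 and 0.15 for Tk1. For Rrm2 the difference was -0.02 with a 95% interval of -0.15 to 0.11, and for Samhd1 it was -0.02 with an interval of -0.13 to 0.09. At 48 h 0 of the 9 members differed between AMP and ENPP1+ATP in edgeR, at an unadjusted p of 0.05 as well, where 0.162% of all genes passed (2460 genes at the unadjusted threshold, and 158 genes adjusted in DESeq2).

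**Figure D2:**
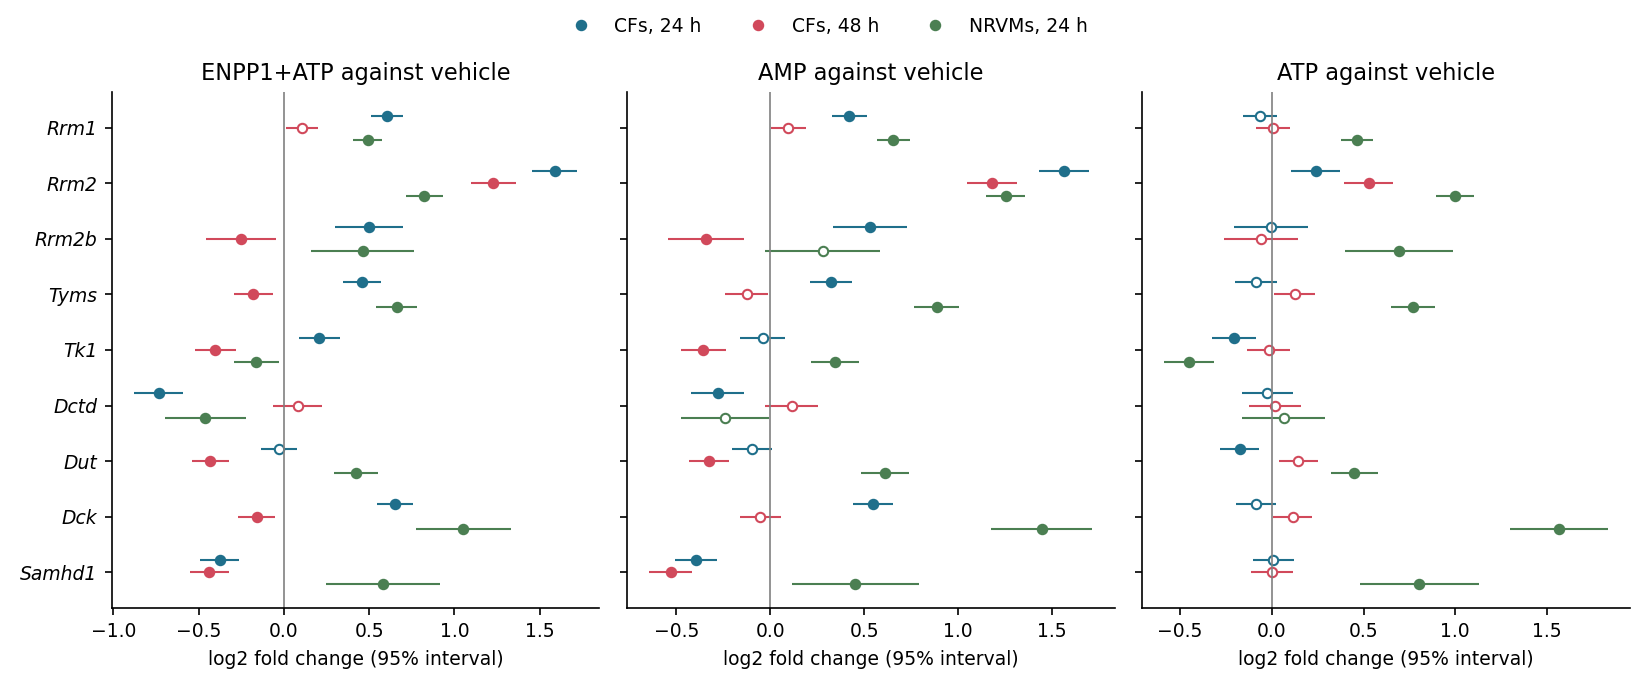
log2 fold change against vehicle medium (x axis) of the 9 genes (y axis) for ENPP1+ATP, AMP and ATP medium, in CFs at 24 h (blue), CFs at 48 h (red) and NRVMs at 24 h (green). Bars are 95% intervals, filled points passed edgeR's test at an adjusted p of 0.05 and open ones did not; Rrm2 lies to the right of 0 in all 9 settings, with 0.24 (CFs, ATP, 24 h) the smallest change.

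By 48 h the picture in CFs had turned. With ENPP1+ATP medium only Rrm2 was still higher than vehicle, and 6 members were lower (Samhd1, Dut, Tk1, Rrm2b, Tyms and Dck), while Rrm1 and Dctd did not pass. Over all genes, 45.2% passed, 20.8% higher and 24.4% lower, and the median log2 change was -0.18 over the members and -0.03 over all genes. Rrm2 stood at 98.8 and 107 CPM with vehicle and 235 and 247 CPM with ENPP1+ATP (log2 change 1.23, SE 0.064, adjusted p = 7.4e-14, edgeR). Dut, which had not moved at 24 h, went from 83.6 and 86.3 CPM to 62.8 and 63.3 CPM (-0.43, adjusted p = 1.9e-07). Tk1 went from 142 and 131 CPM to 103 and 103 CPM (-0.40, adjusted p = 3.1e-06) and Samhd1 from 271 and 267 CPM to 195 and 203 CPM (-0.44, adjusted p = 4.3e-07). For these 3 genes the groups did not overlap and the calls held without any 1 library.

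The smaller decreases at 48 h leaned on single libraries. Rrm2b read 31.7 and 34.4 CPM with vehicle and 30.4 and 25.03 CPM with ENPP1+ATP (log2 change -0.25, adjusted p = 0.043, edgeR), and the call ends without ENPP1+ATP replicate 2 (-0.11, adjusted p = 0.44), without either vehicle library, and in DESeq2 and with RLE factors. Tyms read 115 and 111 CPM against 92.9 and 107 CPM (-0.18, adjusted p = 0.011), a call that ends without ENPP1+ATP replicate 1 (-0.07, adjusted p = 0.37) or vehicle replicate 1. Dck read 84.1 and 88.8 CPM against 76.2 and 78.6 CPM (-0.16, adjusted p = 0.015), and loses its call without ENPP1+ATP replicate 1 or vehicle replicate 2, with adjusted p up to 0.16. Rrm1, at 368 and 372 CPM against 397 and 398 CPM, had a log2 change of 0.11 and an adjusted p of 0.058, which passes in DESeq2 and with RLE factors. Dctd was at 25.3 and 24.8 CPM with vehicle and 26.8 and 26.2 CPM with ENPP1+ATP (0.08, 95% interval -0.06 to 0.22).

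AMP medium at 48 h gave 1 member higher (Rrm2) and 4 lower (Samhd1, Tk1, Rrm2b and Dut), with 44.0% of all genes past the threshold, 21.1% higher and 22.9% lower. Rrm2 read 225 and 241 CPM (log2 change 1.18, adjusted p = 1.4e-13, edgeR) and Samhd1 188 and 185 CPM (-0.53, adjusted p = 1.9e-08). Tk1 was at 105 and 107 CPM (-0.36, adjusted p = 1.5e-05), Dut at 70.7 and 64.7 CPM (-0.33, adjusted p = 1.0e-05) and Rrm2b at 24.3 and 27.8 CPM (-0.34, adjusted p = 0.0066). The Rrm2b call ends without AMP replicate 1 or vehicle replicate 2, with adjusted p up to 0.10. Tyms at 103 and 104 CPM (-0.13, adjusted p = 0.067), Dck at 84.1 and 82.6 CPM (-0.05) and Rrm1 at 406 and 384 CPM (0.10, adjusted p = 0.089) did not pass.

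The change of these effects from 24 h to 48 h was tested as a difference of differences. For ENPP1+ATP against vehicle it passed for 8 of 9 members, in a comparison where 30.0% of all genes passed, and for AMP against vehicle also for 8 of 9, where 31.7% did. Dck shifted most on the downward side with ENPP1+ATP, by -0.81 on the log2 scale (SE 0.073, adjusted p = 7.9e-09, edgeR), followed by Rrm2b at -0.75 and Tyms at -0.64. Dctd was the member that shifted upward, by 0.81 with ENPP1+ATP (adjusted p = 6.4e-07) and 0.39 with AMP (adjusted p = 0.0025). Rrm2 shifted by -0.36 and -0.38, so its increase was smaller at 48 h but still present. Samhd1 was lower at both times, and the difference between times was -0.06 for ENPP1+ATP (95% interval -0.22 to 0.10) and -0.13 for AMP (95% interval -0.29 to 0.03). The AMP call of Dut (-0.23, adjusted p = 0.016) ends without AMP replicate 1 at 24 h, AMP replicate 2 at 48 h or vehicle replicate 2 at 48 h.

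The vehicle libraries themselves differed between the times. Between 24 h and 48 h in vehicle medium, Rrm1, Rrm2, Tyms, Tk1, Dut and Dck rose and Samhd1 fell, 7 of 9 members, whereas 4.88% of all genes passed. Samhd1 dropped by 0.48 on the log2 scale (adjusted p = 6.7e-06, edgeR), from 365 and 385 CPM to 271 and 267 CPM, and Dck rose by 0.31 (adjusted p = 0.00071). Those 2 calls held whichever library was left out. The other 5 did not, and with 1 vehicle library removed between 2 and 4 calls were made. Rrm1 (0.16, adjusted p up to 0.26 in edgeR) and Tyms (0.21, up to 0.25) lost theirs whichever of the 4 libraries was removed. Rrm2 (0.30, up to 0.13) lost its call without replicate 2 of either time, Tk1 (0.27, up to 0.16) without replicate 2 at 24 h or replicate 1 at 48 h, and Dut (0.24, up to 0.091) without either library at 24 h or replicate 2 at 48 h. Dctd, at 29.1 and 29.4 CPM at 24 h and 25.3 and 24.8 CPM at 48 h, had an adjusted p of 0.055.

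In ENPP1+ATP medium the same interval of time brought 7 members down and Dctd up, where 40.7% of all genes passed. Rrm2b went from 41.6 and 43.7 CPM to 30.4 and 25.03 CPM (log2 change -0.62, adjusted p = 1.9e-05, edgeR) and Dck from 111 and 109 CPM to 76.2 and 78.6 CPM (-0.51, adjusted p = 2.5e-08). Dctd climbed back from 16.8 and 18.4 CPM to 26.8 and 26.2 CPM (0.59, adjusted p = 3.3e-07). Dut fell by 0.16 (adjusted p = 0.014), a call that ends without ENPP1+ATP replicate 1 of either time (adjusted p up to 0.073). Rrm2 was the member that did not pass, with a log2 change of -0.05 and a 95% interval of -0.18 to 0.07. In AMP medium 5 members fell and 43.1% of all genes passed, with Rrm2b (-0.75, adjusted p = 1.1e-06) and Samhd1 (-0.61, adjusted p = 2.3e-09) ahead of Dck (-0.29), Tyms (-0.24) and Rrm1 (-0.17). The Rrm1 call in that comparison ends without AMP replicate 1 at 24 h or AMP replicate 2 at 48 h (adjusted p up to 0.056).

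The balance of the reductase subunits also differed from vehicle at 48 h. The ratio of Rrm2 to Rrm2b per kb of exon was 10.3 and 10.2 in the vehicle libraries at 48 h, 16.2 and 14.7 with ATP, 25.5 and 32.5 with ENPP1+ATP and 30.5 and 28.7 with AMP. The ratio of Rrm1 to Rrm2 per kb was 0.992 and 1.02 with vehicle at 24 h and 0.498 and 0.519 with ENPP1+ATP, and 0.936 and 0.874 with vehicle at 48 h and 0.425 and 0.406 with ENPP1+ATP. With AMP it was 0.444 and 0.464 at 24 h and 0.454 and 0.400 at 48 h. The 4 vehicle libraries thus had Rrm1 and Rrm2 at near equal values per kb of annotated exon, a match that depends on the annotated lengths. In all 4 ENPP1+ATP and all 4 AMP libraries Rrm2 had the higher value on this scale.

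ATP medium and ENPP1 medium were the single-agent arms. With ATP at 24 h, Rrm2 was higher (100 and 96.6 CPM, log2 change 0.24, adjusted p = 0.015, edgeR) and Tk1 (101 and 94.8 CPM, -0.21, adjusted p = 0.020) and Dut (65.9 and 61.6 CPM, -0.17, adjusted p = 0.027) were lower, 3 of 9 members where 11.1% of all genes passed, 4.77% higher and 6.32% lower. None of these 3 calls is stable. Rrm2 loses its call without ATP replicate 1 or either vehicle library (adjusted p up to 0.14), Tk1 without ATP replicate 2 or vehicle replicate 1 (up to 0.25) and Dut without ATP replicate 2 or either vehicle library (up to 0.31), and between 0 and 2 calls remained when 1 library was left out. At 48 h Rrm2 was the 1 member past the threshold with ATP, at 151 and 146 CPM (0.53, SE 0.064, adjusted p = 3.2e-06, edgeR), where 7.83% of all genes passed, 5.35% higher and 2.48% lower. That call held without any 1 library. With only the ATP and vehicle groups in the fit, 3 members passed.

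ENPP1 medium left all 9 members near vehicle. In edgeR 0 members and 0% of all genes passed at 24 h and 0 members and 0% at 48 h, and DESeq2 also called 0 genes at both times. At an unadjusted p under 0.05, 249 genes passed at 24 h, none of them a member, and 743 genes at 48 h, among them Tk1 (130 and 119 CPM against 142 and 131 CPM with vehicle). With no filter on low counts, 26 and 180 genes passed at 24 h and 48 h, and without ENPP1 replicate 2 at 48 h, 131 genes did. The widest member interval at 24 h was that of Rrm2b, a log2 change of 0.07 with a 95% interval of -0.13 to 0.27, and Rrm2 changed by 0.01 (-0.12 to 0.15).

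To see what ENPP1 added to ATP, the pair was also set against ATP alone and tested for interaction. ENPP1+ATP differed from ATP for 9 of 9 members at 24 h, where 43.9% of all genes passed, and for 6 of 9 at 48 h, where 39.5% did. Rrm2 was higher by 1.35 (adjusted p = 1.3e-13, edgeR), Dck by 0.74 and Rrm1 by 0.67 at 24 h, and Dctd was lower by -0.71. The smallest of the 9, Dut at 0.15 (adjusted p = 0.023), ends its call without ATP replicate 2 or either ENPP1+ATP library. At 48 h Rrm2 was higher by 0.70 and Dut (-0.58), Samhd1 (-0.44), Tk1 (-0.38), Tyms (-0.30) and Dck (-0.27) lower.

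The interaction term asks whether the pair departs from the sum of the 2 single effects on the log2 scale. It passed for 8 of 9 members at 24 h, where 30.6% of all genes passed, with Rrm2 at 1.34 (SE 0.091, adjusted p = 2.9e-10, edgeR), Dck at 0.75, Rrm1 at 0.70, Tyms at 0.60, Tk1 at 0.45, Rrm2b at 0.43, Samhd1 at -0.37 and Dctd at -0.74. Dut was the member outside it (0.11, 95% interval -0.04 to 0.26). The Rrm2b term (adjusted p = 0.020) ends without ATP replicate 1, ENPP1 replicate 1, ENPP1+ATP replicate 2 or vehicle replicate 2. At 48 h it passed for 6 of 9, where 25.8% of all genes passed, upward for Rrm2 (0.57) and downward for Dut (-0.55), Samhd1 (-0.37), Tyms (-0.29), Tk1 (-0.26) and Dck (-0.24). Of these, Tyms, Tk1 and Dck lose their calls without 1, 3 and 2 single libraries respectively, with adjusted p up to 0.066, 0.17 and 0.093; the libraries are ENPP1+ATP replicate 1 for Tyms, ATP replicate 2, ENPP1 replicate 1 or vehicle replicate 2 for Tk1, and ATP replicate 2 or vehicle replicate 1 for Dck.

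Of 34 further genes of deoxynucleotide supply, 32 were tested in CFs, and with ENPP1+ATP at 24 h 4 were higher and 15 lower, where 23.9% of all genes were higher and 25.3% lower. In the folate cycle that feeds thymidylate synthesis 2 rose and 5 fell of 7, with a median log2 change of -0.32. The mitochondrial folate enzymes Mthfd1l and Mthfd2l fell by 1.31 and 1.25 on the log2 scale. At 48 h Mthfd1l was still lower (-1.17). Among the kinases that finish the triphosphates 2 rose and 4 fell of 8, where Nme4, the mitochondrial nucleoside diphosphate kinase, was higher by 0.37 at 24 h and by 1.45 at 48 h. Nme1 (-0.79) and Nme2 (-1.51) are near-identical copies that counting can split, so their values are uncertain. Of the breakdown enzymes 3 of 9 fell, Nt5c3 (-0.74) and Nt5m (-0.68) among them, of the mitochondrial supply genes 2 of 4 and of the nucleoside transporters 1 of 4 (Slc29a1, -0.69), and none of these 3 groups had a member that rose. With AMP at 24 h 6 of the 32 were higher and 13 lower, where 52.8% of all genes passed, and with ATP 2 were higher and 2 lower, where 11.1% did, so both totals were near the share over all genes.

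Lists of S phase, dividing, p53 and interferon genes were read beside the members. With ENPP1+ATP at 24 h, 9 of 15 S phase genes were higher and 2 lower (median 0.33), all 10 markers of dividing cells were higher (median 0.85), all 17 listed p53 targets were higher (median 1.35) and 7 of 10 interferon-stimulated genes were lower (median -0.54). At 48 h the counts were 5 higher and 2 lower of 15, 8 higher of 10, 16 higher of 17 and 8 lower of 10. Over all genes 23.9% were higher and 25.3% lower at 24 h, and 20.8% and 24.4% at 48 h. The S phase total at 48 h was near the 45.2% of all genes that passed. The summed level of the 10 dividing markers was between 1716 and 1721 CPM with vehicle and between 3727 and 3996 CPM with ENPP1+ATP at 24 h, and between 1699 and 1748 CPM against 2400 to 2477 CPM at 48 h. So dividing markers and Rrm2 were both still above vehicle at 48 h, when Tk1 and Dut were below it. In vehicle medium from 24 h to 48 h, where 4.88% of all genes passed, 7 of 15 S phase genes rose and 3 of 10 dividing markers fell. Of the interferon-stimulated genes 9 of 10 fell, Samhd1 falling as well. With ATP medium 14 of the 17 p53 targets were higher at 24 h (median 0.68) and 16 at 48 h (median 0.88). There 4.77% and 5.35% of all genes were higher, and Rrm2b, whose gene is a p53 target, did not pass at either time. The part of these lists in the members' changes was not tested.

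The labelled cell type was checked too. Of 10 fibroblast markers 9 were above 1 CPM in CFs and none was at 0, and their sum was 7220 to 7625 CPM with vehicle, 3611 to 3707 CPM with ENPP1+ATP and 2831 to 3055 CPM with AMP at 24 h. Macrophage markers, 7 of 10 of which were under 1 CPM, summed to 8.48 to 8.70 CPM with vehicle, 25.6 to 32.8 CPM with ENPP1+ATP and 49.7 to 50.8 CPM with AMP. Cardiomyocyte markers summed to between 12.1 and 23.9 CPM over all CF libraries. The part of these markers in the members' results was not tested.

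The genes whose pattern was nearest to each member were ranked by Pearson's r over the 10 CF group means among the 10882 genes whose mean level was 2 or more in log2 CPM; these means share their libraries and a mostly common contrast between media, so r is a description. For Rrm2 they were Nanos1 (0.997), Naa40 (0.992) and Senp1 (0.992), and for Rrm1 Scrib (0.986), Stmn1 (0.983) and Arsb (0.981). Samhd1 stood next to Nmi and Ifih1 (both 0.994), which are interferon-induced genes, and Hspa5 (0.987), a chaperone of the endoplasmic reticulum. Tyms had another member, Dck, as its nearest gene (0.9753). Among the members themselves Rrm1 and Dck (0.907) and Tk1 and Dut (0.850) ran together, and Rrm1 and Dctd (-0.896) ran opposite.

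NRVMs given the same media expressed all 9 members. With vehicle, Rrm1 read 170, 159 and 167 CPM, Rrm2 45.9, 46.8 and 46.1 CPM, Dck 5.84, 7.30 and 5.93 CPM and Samhd1 7.01, 5.92 and 3.88 CPM. ENPP1+ATP medium changed 9 of 9 members, 7 higher and 2 lower (Tk1 and Dctd), where 56.0% of all genes passed, 28.6% higher and 27.4% lower. The median log2 change was 0.49 over the members and 0.01 over all genes.

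Rrm2 in NRVMs read 82.3, 81.1 and 82.5 CPM with ENPP1+ATP (log2 change 0.82, SE 0.053, adjusted p = 1.6e-17, edgeR) and Rrm1 232, 226 and 238 CPM (0.49, SE 0.043, adjusted p = 2.9e-13). Tyms rose from 40.02, 38.0 and 38.0 CPM to 62.1, 58.3 and 63.2 CPM (0.66, adjusted p = 9.0e-13), and Dut from 39.3, 43.3 and 42.9 CPM to 60.3, 54.4 and 53.9 CPM (0.43, adjusted p = 2.6e-07). For these 4 genes every treated library was above every vehicle library. Dck, near the bottom of the range, went to 15.004, 10.4 and 14.3 CPM (1.05, SE 0.14, adjusted p = 1.4e-08). Dctd fell from 11.8, 15.1 and 13.5 CPM to 10.1, 10.2 and 8.98 CPM (-0.46, adjusted p = 0.00091), also without overlap.

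Other NRVM calls leaned on single libraries. Samhd1 rose from 7.01, 5.92 and 3.88 CPM to 9.65, 7.73 and 8.01 CPM (log2 change 0.58, adjusted p = 0.0027, edgeR) and its adjusted p is 0.054 without vehicle replicate 3. Rrm2b rose from 5.71, 6.27 and 5.17 CPM to 7.40, 7.09 and 9.18 CPM (0.46, adjusted p = 0.0077), and the call ends without ENPP1+ATP replicate 3 (adjusted p = 0.082). Tk1 overlapped between the groups, at 49.9, 59.2 and 48.9 CPM against 50.4, 47.1 and 44.2 CPM (-0.16, adjusted p = 0.037), and its call ends without vehicle replicate 2 (-0.07, adjusted p = 0.41) or without ENPP1+ATP replicate 2 or 3.

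**Figure D3:**
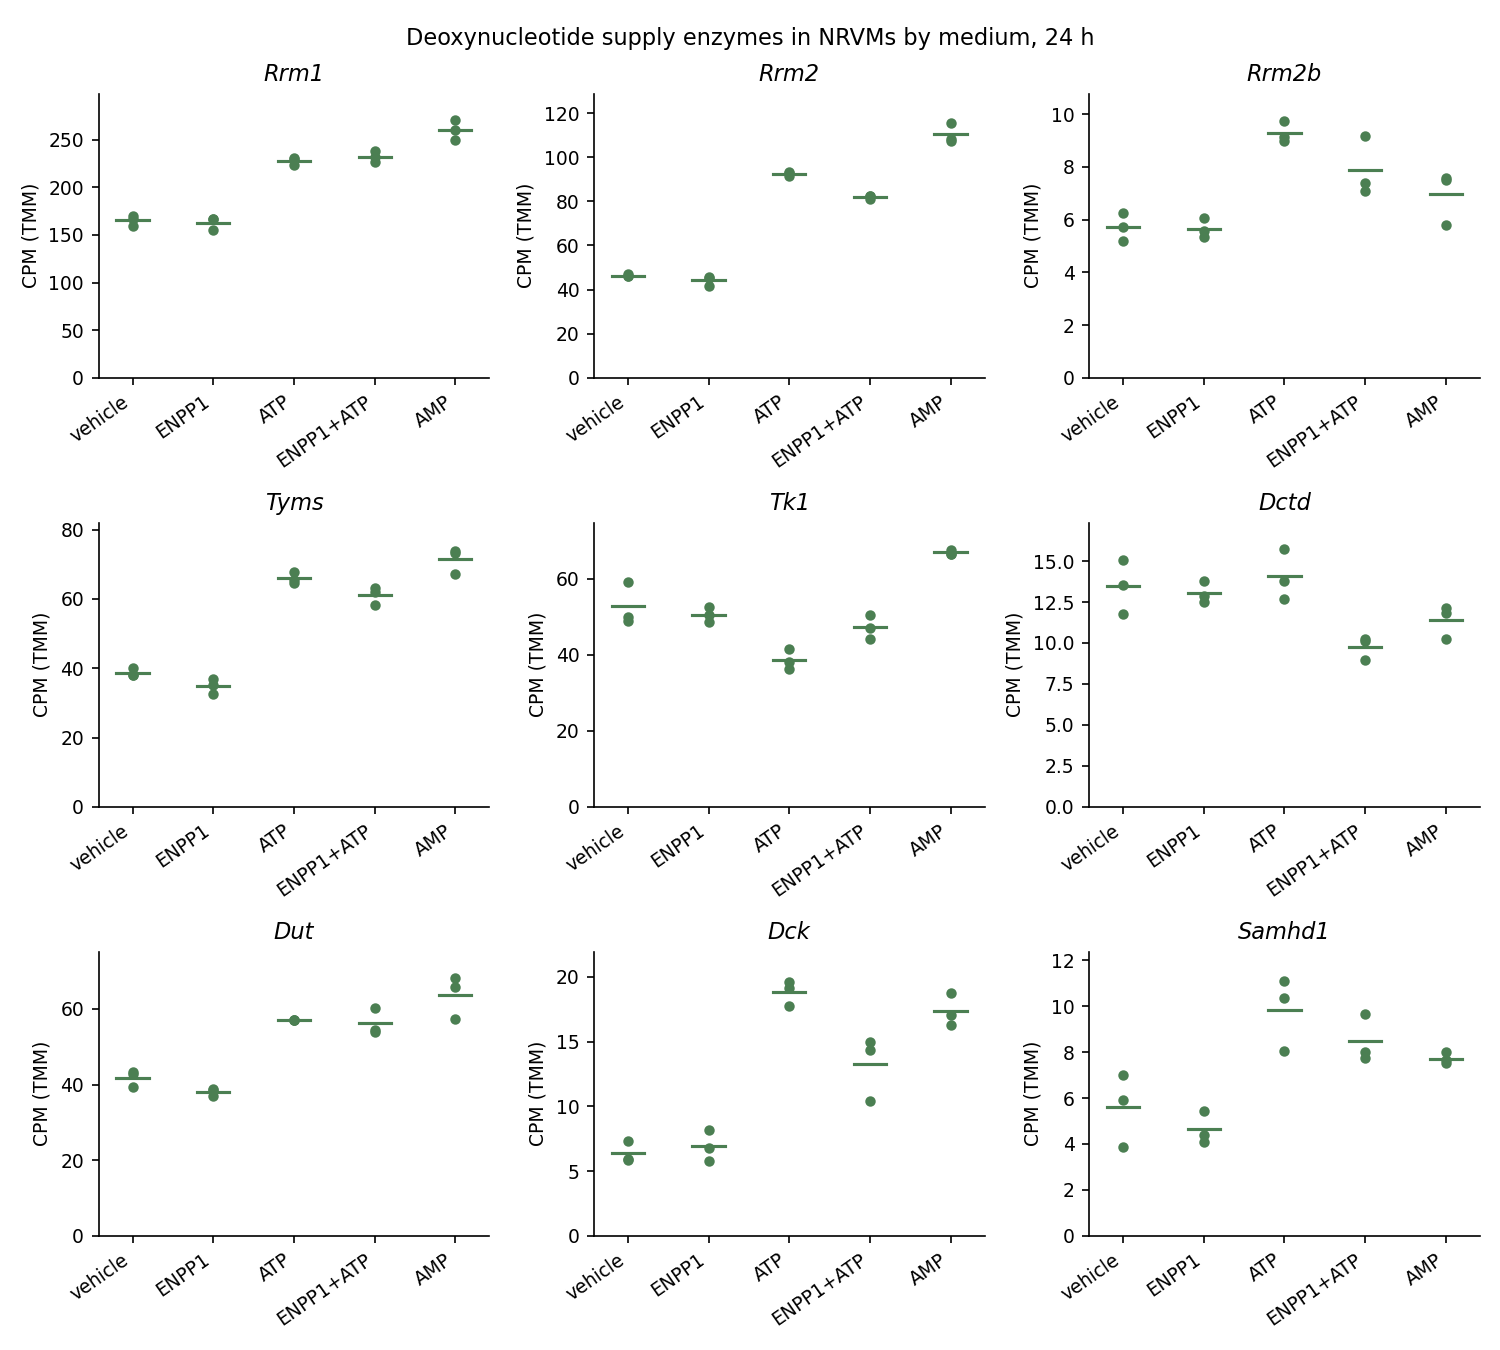
Level of each of the 9 genes in NRVMs at 24 h (y axis, CPM with TMM factors, from 0) by medium (x axis). Points are the 3 libraries per medium and lines their mean; ATP, ENPP1+ATP and AMP all stand above vehicle for Rrm1, Rrm2, Tyms, Dut and Dck, and Tk1 is lowest with ATP (36.3 to 41.4 CPM) and highest with AMP (66.5 to 67.7 CPM).

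ATP medium, which had called 3 and 1 members in CFs, called 8 of 9 in NRVMs, with 59.9% of all genes past the threshold, 30.2% higher and 29.7% lower. Rrm2 reached 93.0, 93.5 and 91.3 CPM (log2 change 1.00, SE 0.052, adjusted p = 1.1e-20, edgeR) and Dck 19.6, 19.2 and 17.8 CPM (1.56, SE 0.13, adjusted p = 1.1e-13), the largest change of a member in any comparison with vehicle in NRVMs. Samhd1 (8.05, 11.1 and 10.4 CPM, 0.80, adjusted p = 3.9e-05), Tyms (0.77), Rrm2b (0.70), Rrm1 (0.46) and Dut (0.45) were higher. Tk1 was lower, at 36.3, 41.4 and 38.0 CPM (-0.45, adjusted p = 1.9e-07), and Dctd did not pass (0.07, 95% interval -0.16 to 0.29). All 8 calls held without any 1 library.

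AMP medium called 7 of 9 members in NRVMs, all of them higher, where 57.2% of all genes passed, 29.2% higher and 28.0% lower. Rrm2 read 107, 108 and 116 CPM (log2 change 1.25, SE 0.052, adjusted p = 6.1e-24, edgeR), Dck 17.0, 18.8 and 16.3 CPM (1.45, adjusted p = 2.0e-12) and Tyms 73.4, 67.2 and 73.9 CPM (0.89, adjusted p = 8.0e-17). Tk1, lower with the other 2 media, was higher here, at 66.5, 66.6 and 67.7 CPM (0.34, adjusted p = 1.3e-05). Samhd1 at 7.63, 7.53 and 7.99 CPM (0.45, adjusted p = 0.020) loses its call without vehicle replicate 3 (adjusted p = 0.22) or AMP replicate 3. Rrm2b (0.28, adjusted p = 0.11) and Dctd (-0.24, adjusted p = 0.073) did not pass.

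The active media were then compared with each other in NRVMs. AMP exceeded ENPP1+ATP for 6 of 9 members, where 9.66% of all genes passed: Tk1 by 0.50 (adjusted p = 1.7e-07, edgeR), Rrm2 by 0.43 (adjusted p = 9.6e-09), Dck by 0.39, Tyms by 0.22, Dut by 0.18 and Rrm1 by 0.16. The Rrm2 and Tk1 calls held without any 1 library, while the other 4 each end without ENPP1+ATP replicate 2, and in part without other libraries, with adjusted p up to 0.28. ENPP1+ATP differed from ATP for 4 of 9, where 27.5% of all genes passed, with Tk1 higher by 0.29 and Rrm2 (-0.18), Dck (-0.51) and Dctd (-0.53) lower. ENPP1 medium gave 0 calls in edgeR among the members and 0% over all genes, with 693 genes, Tyms and Dut among them, at an unadjusted p under 0.05 and 0 in DESeq2 (14 with no filter on low counts). The interaction of ENPP1 and ATP passed for 3 of 9, where 14.8% of all genes passed, for Tk1 (0.35, adjusted p = 0.0068), Dctd (-0.49, adjusted p = 0.035) and Dck (-0.64, adjusted p = 0.017). Without vehicle replicate 1 or 3, among others, the Dctd and Dck terms lose their calls (adjusted p up to 0.14 and 0.12).

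NRVM cultures also hold other cells, and their markers moved with the media. The sum of the 9 fibroblast markers found was 24942 to 26324 CPM with vehicle, 8451 to 8914 CPM with ENPP1+ATP, 10552 to 11893 CPM with ATP and 11730 to 12525 CPM with AMP. The 7 cardiomyocyte markers found summed to 24928 to 25808, 22368 to 23363, 14908 to 15852 and 25528 to 27266 CPM, and none was at 0. With vehicle, the cardiomyocyte and fibroblast sums were thus of like size. Macrophage markers, 6 of 9 of which were under 1 CPM and none at 0, summed to 4.56 to 5.44 CPM with vehicle, 8.95 to 11.5 CPM with ENPP1+ATP, 15.1 to 16.9 CPM with ATP and 9.81 to 12.3 CPM with AMP, and so were higher in the media in which Samhd1 and Dck were higher. The 8 endothelial markers found, 2 of them under 1 CPM and none at 0, summed to 21.9 to 27.1, 38.7 to 44.4, 55.3 to 78.3 and 36.9 to 94.7 CPM in the same order. Markers of dividing cells summed to 509 to 521 CPM with vehicle, 479 to 502 CPM with ENPP1+ATP, 510 to 565 CPM with ATP and 606 to 638 CPM with AMP. Of 14 S phase genes tested, 6 were higher and 2 lower with ENPP1+ATP, 12 higher with ATP and 13 higher with AMP. Of the 29 other supply genes tested, 10 were higher and 7 lower with ENPP1+ATP. Over all genes 56.0% passed with ENPP1+ATP, so both totals with that medium were near this share. With ATP 30.2% and with AMP 29.2% of all genes were higher. The part of these markers in the members' results was not tested.

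Set side by side at 24 h, CFs and NRVMs shared the direction of Rrm1, Rrm2, Rrm2b, Tyms and Dck (higher) and of Dctd (lower) with ENPP1+ATP. Samhd1 and Tk1 had opposite calls. Samhd1 was lower in CFs (-0.38) and higher in NRVMs (0.58), and Tk1 was higher in CFs (0.21) and lower in NRVMs (-0.16). Both Tk1 calls and the NRVM call of Samhd1 end without single libraries, as given above. Dut was at -0.03 in CFs and 0.43 in NRVMs. The cells are labelled as of different strains and cell types and their tables were normalized separately, and the difference between them was not tested.

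In the injured heart the 2 single-cell libraries allow levels, not tests, because there was 1 library per genotype. The control library held 5347 barcodes and the ENPP1CKO library 7460, of which 68 barcodes were shared, with medians of 3703 and 3396 counts per barcode. After filters 5236 and 7256 cells remained and fell into 19 clusters, named by marker genes, and 2 clusters carried all 10 dividing markers. Of these, 1 was fibroblast-like, with 69 control and 50 ENPP1CKO cells, and 1 macrophage-like, with 53 and 55. The members were left out of the genes used for clustering. Intervals are 95% Poisson intervals of summed counts, or exact binomial ones for ratios, and cover counting error only.

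Dividing clusters were compared with the other cells of each library, as a description. Tk1, Rrm2, Rrm1, Tyms and Dut were higher in the dividing clusters than in all other cells of both libraries, with intervals of the ratio that leave out 1, and Dck was too in the ENPP1CKO library. In the control library Tk1 was at 116 CPM in dividing clusters and 5.28 CPM elsewhere, a ratio of 21.998 (16.8 to 28.9), and in the ENPP1CKO library at 191 and 2.59 CPM, a ratio of 73.7 (54.5 to 100.4). Rrm2 was at 83.7 and 6.32 CPM in control (13.3, 9.92 to 17.6) and at 149 and 6.09 CPM in ENPP1CKO (24.5, 18.9 to 31.7). Rrm1 had ratios of 7.65 and 8.86, Tyms of 4.02 and 4.26 and Dut of 2.76 and 2.65. Dck had ratios of 1.69 (0.982 to 2.72) and 4.26 (2.67 to 6.50). Samhd1 was lower in the dividing clusters of the control library, at 0.451 (0.324 to 0.612), and had a ratio of 1.01 (0.703 to 1.40) in ENPP1CKO. Rrm2b (0.524 and 0.831) and Dctd (0.510 and 0.377) had intervals around 1. With every cell thinned to 1000 counts, Tk1 was at 73.8 and 175 CPM in the dividing clusters and at 4.48 and 2.86 CPM elsewhere. Dck then had 0 counts in the control dividing clusters. Samhd1 was then at 16.4 CPM in the control dividing clusters, from 2 counts, and at 127 CPM in the other control cells.

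Dividing clusters were 2.33% of control and 1.45% of ENPP1CKO cells and held 4.31% and 2.51% of all counts. Of all Tk1 counts, 49.8% (43.0 to 56.5) in control and 65.5% (58.4 to 72.1) in ENPP1CKO came from them, and of all Rrm2 counts 37.4% and 38.7%. The share was 25.6% and 18.6% for Rrm1, 15.3% and 9.89% for Tyms and 11.1% and 6.38% for Dut. For Rrm2b it was 2.31% and 2.09% and for Samhd1 1.99% and 2.53%, near or under the share of all counts. Most Tyms and Dut counts were thus outside the dividing clusters in both libraries, while most Tk1 counts were inside them in ENPP1CKO and the interval spans an even split in control.

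**Figure D4:**
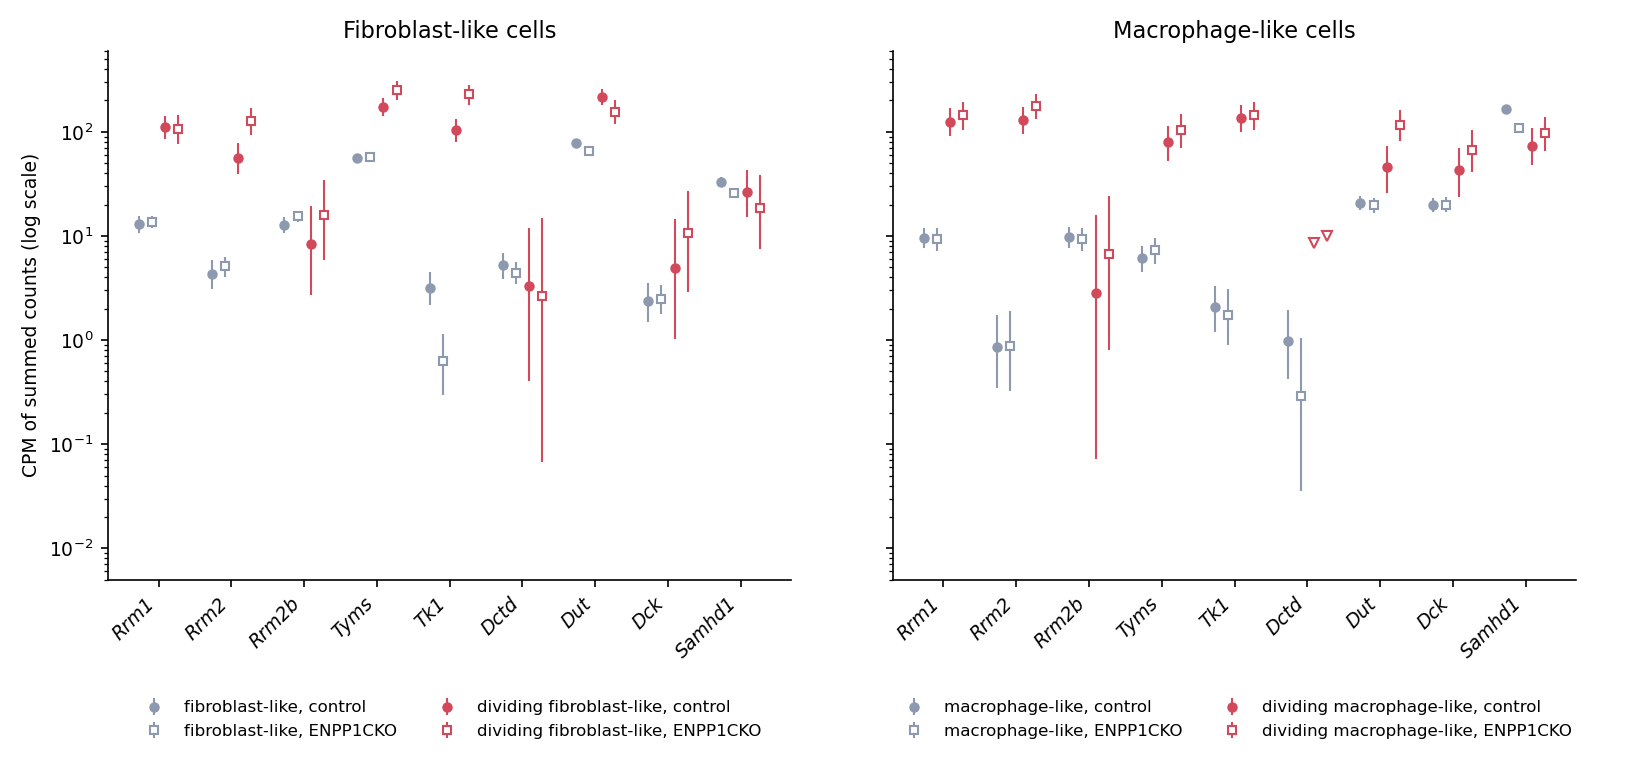
Level of the 9 genes (y axis, CPM of summed counts, log scale) in fibroblast-like (left) and macrophage-like cells (right), for non-dividing (grey) and dividing clusters (red) of the control (filled circles) and ENPP1CKO library (open squares). Bars are 95% Poisson intervals and open triangles the limit that 3 counts would give where the count was 0 (Dctd in dividing macrophage-like cells); Rrm2 goes from 4.31 and 5.10 CPM to 56.3 and 127 CPM in fibroblast-like cells and from 0.853 and 0.875 CPM to 131 and 177 CPM in macrophage-like cells.

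The lineages differed both outside and within the dividing clusters. Non-dividing fibroblast-like cells had 55.9 and 56.7 CPM of Tyms in the control and ENPP1CKO library and 77.7 and 65.5 CPM of Dut, while macrophage-like cells had 6.10 and 7.30 CPM of Tyms and 20.8 and 19.7 CPM of Dut. Rrm2 was likewise lower in macrophage-like cells, at 0.853 and 0.875 CPM against 4.31 and 5.10 CPM. Dck and Samhd1 were the reverse, with Dck at 19.9 and 20.0 CPM in macrophage-like and 2.36 and 2.49 CPM in fibroblast-like cells. In the dividing clusters Tyms was at 174 and 252 CPM in fibroblast-like and 79.5 and 104 CPM in macrophage-like cells, Dut at 215 and 156 CPM against 45.4 and 117 CPM, and Samhd1 at 26.5 and 18.6 CPM against 73.8 and 97.0 CPM. Dck was at 4.97 and 10.6 CPM against 42.6 and 66.9 CPM there, and Rrm1 at 111 and 106 CPM against 125 and 144 CPM. Dctd had 0 counts in dividing macrophage-like cells of both libraries, which allows up to 8.52 and 10.03 CPM.

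Samhd1 varied widely over cell classes. In the control library it was highest in neutrophil-like cells, at 501 CPM (429 to 582). In the ENPP1CKO library 42 cells carried that name and Samhd1 stood at 287 CPM (176 to 444), but at 127 CPM, below T or NK-like cells, with predicted doublets kept, at a Leiden resolution of 1.0 or with the members among the clustering genes. Dendritic-like cells had 235 and 123 CPM, macrophage-like cells 166 and 109 CPM and T or NK-like cells 140 and 149 CPM. Fibroblast-like cells had 32.7 and 25.8 CPM and endothelial-like cells 41.3 and 50.9 CPM, so the myeloid classes lay above the stromal ones in both libraries. Among fibroblast-like cells, the cluster led by the interferon-induced genes Ifit3b, Ifit3 and Ifit1 (70 and 97 cells) had 110 CPM (81.0 to 147) and 126 CPM (96.8 to 161) of Samhd1, above the 18.6 to 43.6 CPM of the 3 large fibroblast-like clusters. Dck was highest in dendritic-like cells, at 80.1 and 71.1 CPM. Tyms was at 75.4 and 86.0 CPM in endothelial-like cells and at 76.7 and 30.4 CPM in T or NK-like cells.

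**Figure D5:**
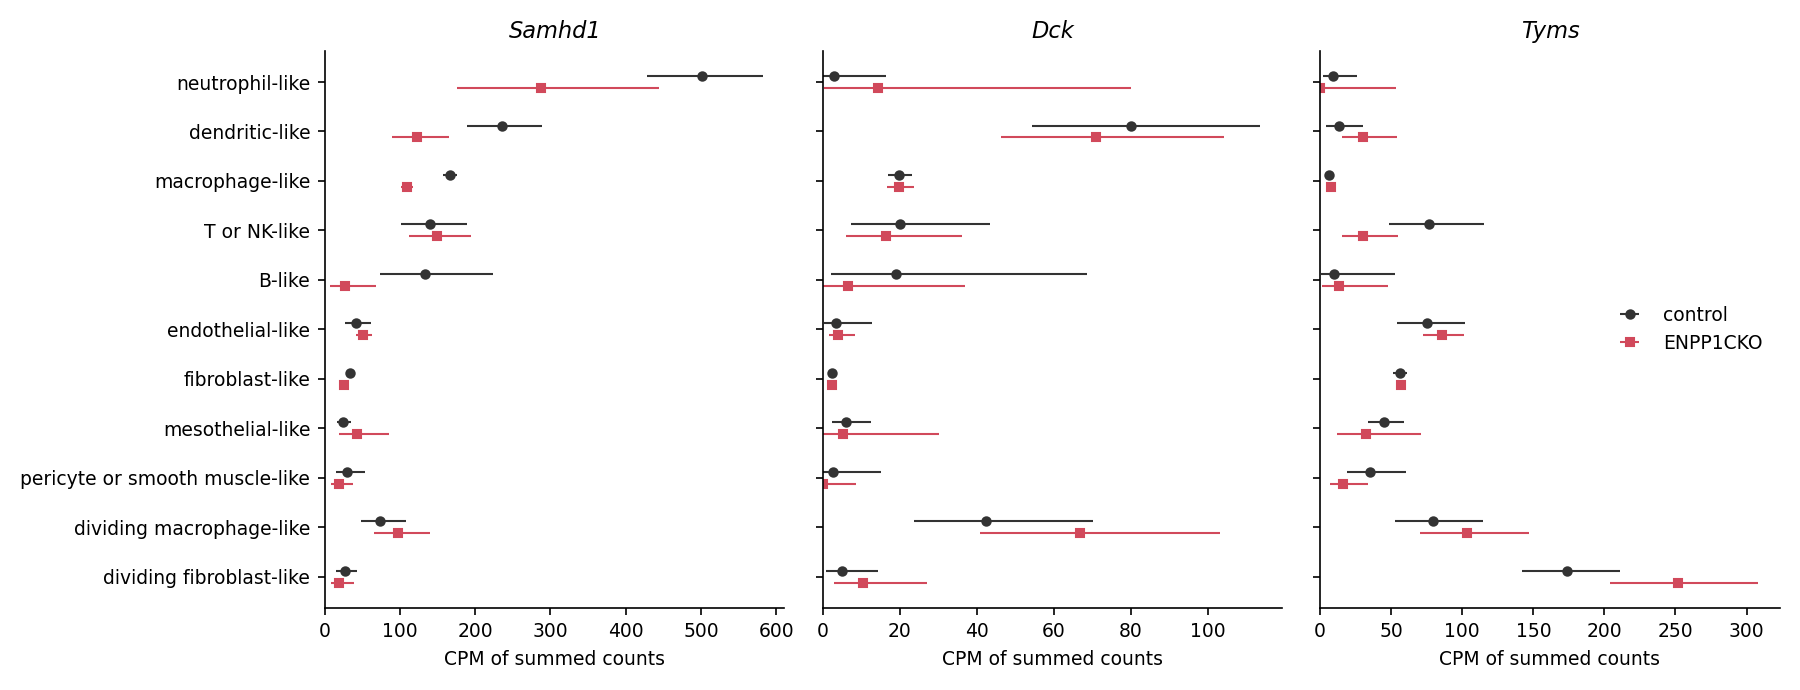
Level of Samhd1, Dck and Tyms (x axes, CPM of summed counts) by cell class (y axis) in the control (black circles) and ENPP1CKO library (red squares), with 95% Poisson intervals. Samhd1 is highest in neutrophil-like cells (501 and 287 CPM, the latter 127 CPM under 3 other clustering settings), Dck in dendritic-like cells (80.1 and 71.1 CPM) and Tyms in dividing fibroblast-like cells (174 and 252 CPM).

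Between the 2 libraries, Samhd1 was lower in ENPP1CKO over all cells and in every class whose interval leaves out 1. Over all cells it was at 95.04 CPM in control and 52.8 CPM in ENPP1CKO, a ratio of 0.556 (0.519 to 0.594), and within macrophage-like cells the ratio was 0.654 (0.598 to 0.716), within dendritic-like cells 0.523 (0.358 to 0.756) and within fibroblast-like cells 0.789 (0.680 to 0.916). It was 0.573 (0.342 to 0.914) in neutrophil-like cells, whose ENPP1CKO level moved with the clustering, and 0.200 (0.0479 to 0.636) in B-like cells, from 14 and 4 counts. The interval spanned 1 in the other classes, with ratios below 1 in dividing fibroblast-like (0.700) and pericyte or smooth muscle-like cells (0.625), 0 ENPP1CKO counts in the Schwann or glial-like and cardiomyocyte-like cells, and ratios above 1 at 1.23 (0.771 to 2.04) in endothelial-like, 1.07 (0.699 to 1.64) in T or NK-like, 1.31 (0.747 to 2.32) in dividing macrophage-like and 1.85 (0.725 to 4.18) in mesothelial-like cells. Different clusters made up these classes in the 2 libraries. Macrophage-like cluster 11 had 814 control and 51 ENPP1CKO cells, and Samhd1 there was at 268 and 326 CPM, while in cluster 0 it was at 213 and 124 CPM and in cluster 2 at 114 and 92.2 CPM. Fibroblast-like cells were mostly in cluster 3 in control (1001 cells against 781) and in clusters 5 (240 against 1699) and 6 (472 against 1079) in ENPP1CKO. Samhd1 was at 26.3 and 20.9 CPM in cluster 3 and at 43.6 and 27.7 CPM in cluster 6, but at 18.6 and 20.7 CPM in cluster 5 and, as above, at 110 and 126 CPM in the cluster led by interferon-induced genes, so the ratio of the class joins clusters of both directions. With 1 library each, genotype, animal and library cannot be told apart.

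In the dividing fibroblast-like cluster Rrm2 was at 56.3 CPM in control and 127 CPM in ENPP1CKO, a ratio of 2.26 (1.43 to 3.62), Tk1 at 104 and 228 CPM (2.18, 1.56 to 3.07) and Tyms at 174 and 252 CPM (1.45, 1.09 to 1.93). Rrm1 there was at 111 and 106 CPM, and Dut went the other way, at 215 and 156 CPM (0.726, 0.525 to 0.995). In the dividing macrophage-like cluster Dut was at 45.4 and 117 CPM (2.58, 1.39 to 4.99), from 16 and 35 counts. The ratio for Dut was therefore opposite in direction in the 2 dividing clusters, each of which held 50 to 69 cells per library. With every cell thinned to 1000 counts, the control dividing macrophage-like cells had 0 Dut counts, which allows up to 56.6 CPM. T or NK-like cells, which were not split into dividing and other cells, had Rrm2 at 127 and 35.9 CPM (0.284, 0.139 to 0.544) from 38 and 13 counts. Dendritic-like cells, not split either, went the other way, with 0 control counts of Rrm2 (up to 7.75 CPM allowed) against 20 in ENPP1CKO (54.7 CPM) and 0 against 9 of Tk1 (24.6 CPM). Outside dividing clusters Tk1 in fibroblast-like cells rested on 31 and 10 counts (3.18 and 0.622 CPM).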

How the data were processed

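Bulk RNA-Seq gave raw read counts per gene, deposited by the authors as a table of 20 CF and a table of 15 NRVM libraries; the submitters' processing notes name STAR 2.5.3a, mm10 and rn6. The counting program and its strand setting are not given in the sources used here. Single-cell counts (UMIs per gene and cell) are the authors' Cell Ranger matrices. 0 sample columns were left unused. The members and all gene lists were chosen with earlier results of these data known, and all 9 members are reported. Other supply genes are named by size of change in CFs with ENPP1+ATP, up to 3 per list, and 1 gene that this rule names is not reported here.

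Counts were filtered with filterByExpr, scaled with TMM and tested with edgeR 4.0.16 (quasi-likelihood, R 4.3.3) in 1 fit per table. Each fit had 1 mean per medium and time, with Benjamini-Hochberg adjustment over all genes. A prior count of 2 entered the log2 CPM used for correlations, not the log2 changes. On counts simulated for ENPP1+ATP against vehicle at 24 h (17879 CF and 13461 NRVM genes) the CF fit recovered 82% of 100 genes changed 1.5-fold and 99% of 100 changed 2-fold, and the NRVM fit 85% and 98%. Alternatives were DESeq2 1.42.0, RLE factors, no filter, only the groups compared, a replicate block and each library left out. Depth was 32184799 to 115824659 reads per CF library and 13481389 to 16977980 per NRVM library.

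Single cells were kept from 200 genes upward if mitochondrial counts made up 20% or less, predicted doublets (73 control and 150 ENPP1CKO cells) removed with the Scrublet method of Scanpy 1.11.5, and cells clustered on 2000 variable genes without the members (30 components, 15 neighbours, Leiden resolution 0.5). Counts were summed per class and library. A count of 0 was given the limit of 3 counts. Promoters were read from the RefSeq table of GRCm38.p6.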

Additional observations from a re-analysis of the deposited data

Results flagged for a closer look

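The effect of medium on CFs differed between 24 h and 48 h by edgeR's interaction test for 8 members with each active medium. For ENPP1+ATP against vehicle the 48 h minus 24 h difference on the log2 scale was -0.50 for Rrm1, -0.36 for Rrm2, -0.75 for Rrm2b, -0.64 for Tyms, -0.61 for Tk1, 0.81 for Dctd, -0.40 for Dut and -0.81 for Dck. For AMP against vehicle it was -0.33 for Rrm1, -0.38 for Rrm2, -0.88 for Rrm2b, -0.45 for Tyms, -0.32 for Tk1, 0.39 for Dctd, -0.23 for Dut and -0.60 for Dck. Both sets use the same vehicle libraries, in which 7 of the 9 members also differed between the times.

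At 24 h, members were flagged where treated and vehicle libraries did not overlap in CFs or in NRVMs and the directions were opposite. The difference itself was not tested, and the share of all genes that meet this rule was not counted. The NRVM log2 change minus the CF log2 change was 0.45 for Dut and 0.96 for Samhd1 with ENPP1+ATP, and 0.70 for Dut and 0.85 for Samhd1 with AMP. With ATP it was 0.53 for Rrm1, 0.85 for Tyms and 0.62 for Dut, and with ENPP1 it was -0.17 for Dut. Dut with ENPP1+ATP, AMP and ENPP1 and Rrm1 and Tyms with ATP did not pass the test in CFs. So of these only Samhd1 with both media and Dut with ATP had a call in each cell type. The NRVM calls of Samhd1 with both media and the CF call of Dut with ATP end without single libraries, as given above.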

How the results depend on the processing

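Each setting gave 234 fits of a member in a comparison. In DESeq2 226 kept their side of the threshold, with RLE factors 228, with no filter 227 and with only the groups compared 222. No called change reversed, and directions were not compared where neither fit made a call. Leaving out 1 library kept 1170 of 1260. The count of members called moved by over 1.5 times for CFs with ATP at 24 h (3, and 0 to 2 without 1 library), AMP against ENPP1+ATP in CFs at 24 h (3, and 1 to 3), CF vehicle 48 h against 24 h (7, and 2 to 4), AMP against ENPP1+ATP in NRVMs (6, and 2 to 6) and the interaction in NRVMs (3, and 1 to 3). With only the groups compared, CFs with ATP at 48 h had 3 calls in place of 1.

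With the replicate number as a replicate block, all 26 counts of called members stayed as they were, for example 8 for ENPP1+ATP against vehicle in CFs at 24 h. What libraries with the same number share is not given in the labels. The median correlation of their deviations was 0.0125 in CFs (6 of 90 pairs over 0.1) and 0.0143 in NRVMs (1 of 30). In CFs 16 of 20 libraries correlated best with their own number, and in NRVMs 4 of 15 did.

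Counts over all genes moved for CFs with ATP at 24 h (1983, and 939 to 1228 without 1 library) and at 48 h (1400, 2608 with only the groups compared, and from 631 without 1 library), AMP against ENPP1+ATP at 24 h (1118, 383 with only the groups compared, 252 and 553 without ENPP1+ATP replicate 1 and 2) and at 48 h (29, 158 in DESeq2, 322 with no filter, 2 with only the groups compared, 47 with the replicate block, 1 to 102 without 1 library) and vehicle 48 h against 24 h (873, 2508 with only the groups compared, 245 to 457 without 1 library). The causes were not tested. Of 288 single-cell levels, 130 moved beyond their interval when each cell was thinned to 1000 counts (423 control and 504 ENPP1CKO cells left out). At a Leiden resolution of 1.0, 2 moved and 286 stayed, and with predicted doublets kept 3 moved and 285 stayed. With a stricter cell filter, and with the members among the clustering genes, 2 moved and 268 stayed in each case. The rest of the 288 levels were not compared in those last cases. Low depth limits Rrm2b, Dck and Samhd1 in NRVMs and Dctd and Rrm2b in single cells.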
